A study of Mus musculus with 6 samples.

Results

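The collagen chain genes are the protein-coding genes whose symbol is Col, a number, the letter a and a further number. All 44 genes of this kind among the 55401 rows of the count table were taken, without regard to their level. The symbol rule used no measured value, although the family was chosen with earlier results of these data known. They comprise 11 fibrillar chains, 9 FACIT chains (fibril-associated collagens with interrupted triple helices), 6 basement membrane network chains, 6 beaded filament chains, 4 transmembrane chains, 3 other network chains, 2 multiplexins, 2 other chains and 1 anchoring fibril chain. Their RNA was measured by RNA-seq of whole E10.5 mouse embryos on a C57BL/6J background. WT embryos carry the unmodified *Igf2* locus, and 5C embryos are littermates whose *Igf2* locus holds 5 tandem extra copies of *Mir483*, placed there in embryonic stem cells and passed on by chimeric males. Each genotype had 3 libraries, here called WT 1 to WT 3 and 5C 1 to 5C 3, and a library pooled a pair of embryos, described in the methods as male. The array is not restricted to 1 cell type, since its host gene, which is imprinted, is active in many fetal tissues.

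Collagens are secreted matrix proteins built from alpha chains wound into a triple helix, and the chains of a collagen type come from 1 or more genes. Fibrillar collagens give connective tissue and cartilage their tensile strength, FACIT collagens coat the fibrils, and type IV collagen forms the sheet that underlies epithelia, endothelia and the visceral and parietal endoderm of the yolk sac. The embryo at this stage has loose mesenchyme, a notochord, somites and early cartilage condensations, and bone has not yet formed.

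Library totals ranged from 6357343 to 19151368 counts, so that 3 counts, the upper limit that a count of 0 allows, stood for 0.157 to 0.477 CPM (counts relative to the library total after TMM scaling, the trimmed mean of M values). This limit covers counting error only. *Mir483*, the check of the labels, measured 0.576, 0.428 and 0.318 CPM in WT 1 to WT 3 and 5.14, 4.34 and 2.56 CPM in 5C 1 to 5C 3, so every 5C library lay above every WT library. Such reads come from precursor transcripts, and mature microRNAs were not measured by these libraries. Of the 10 markers of yolk sac visceral endoderm (*Afp*, *Apob* and others, all tested), 10 were highest in WT 1, and their summed level was 6591, 208 and 478 CPM in WT 1 to WT 3 and 144, 144 and 1278 CPM in 5C 1 to 5C 3. The summed level of the Y-linked *Ddx3y*, *Kdm5d*, *Eif2s3y* and *Uty* was 189, 4.11 and 193 CPM in WT 1 to WT 3 and 211, 0.0852 and 130.1 CPM in 5C 1 to 5C 3, so 1 library of each genotype, WT 2 and 5C 2, went against the male sex stated in the methods. In bulk RNA of a whole embryo, fewer cells of a type and less RNA per cell cannot be told apart.

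The mature sequences of the microRNAs made from the extra copies are shown because their seed, bases 2 to 8 in capitals, sets which transcripts can be matched. The miR-29a-3p sequence is shown beside them as a microRNA known for sites in many collagen transcripts, and it was added after the data were seen. All are RefSeq sequences of GRCm38.p6.
miR-483-3p: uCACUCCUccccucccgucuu
miR-483-5p: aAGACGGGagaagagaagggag
miR-29a-3p: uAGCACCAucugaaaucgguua
The hairpin that gives both miR-483 arms lies on the minus strand of chromosome 7, the 3p arm at 142654932 to 142654952 and the 5p arm at 142654968 to 142654989.

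The letters AGGAGTG, which pair with the miR-483-3p seed, stood in the 3′ UTR of the longest coding transcript of 8 of the 42 collagen genes with an annotated 3′ UTR, or 19%, against 10.54% of 20920 coding genes. These were *Col5a1*, *Col5a2*, *Col4a3*, *Col6a6*, *Col14a1*, *Col22a1*, *Col26a1* and *Col28a1*. The letters CCCGTCT, which pair with the miR-483-5p seed, were found in 1 of the 42 collagen genes, *Col1a1*. This is 2.38%, against 2.67% of coding genes. The sites of the 6 matched genes that could be tested are given below with the match in capitals, as GRCm38 transcript sequence in the sense of the gene.
Col5a1, miR-483-3p: gtttccagcagAGGAGTGtcctgggt
Col5a2, miR-483-3p: ttttagtttccAGGAGTGaaaactaa
Col14a1, miR-483-3p: atcatttgtccAGGAGTGtgtttcag
Col22a1, miR-483-3p: attaaatatgaAGGAGTGttcttgtt
Col26a1, miR-483-3p: ccctgcccagcAGGAGTGaccatccc
Col1a1, miR-483-5p: agcccctcaacCCCGTCTacttccct
The letters TGGTGCT, which pair with the miR-29a-3p seed, were more frequent, in 24 of 42 collagen genes or 57.1%, against 13% of coding genes. The match in *Col1a1* and the one in *Col3a1* read as follows.
Col1a1, miR-29a-3p: gaaggaatttcTGGTGCTatagaagc
Col3a1, miR-29a-3p: aaatgtctcaaTGGTGCTataataaa
A seed match is a run of letters and does not show that a site is used. The 3′ UTRs of the collagen genes had a median of 1079.5 bases against 940 bases for all coding genes.

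The collagen RNA of these embryos was made up mainly of a few chains of mesenchyme, basement membrane and cartilage. Together the 44 genes took 0.341%, 0.248% and 0.294% of all counts in WT 1 to WT 3 and 0.269%, 0.270% and 0.243% in 5C 1 to 5C 3. Levels of different genes were compared as CPM per kilobase of annotated exon, averaged over the 6 libraries. *Col3a1*, the fibrillar collagen of loose connective tissue, was the highest at 64 CPM per kilobase, followed by *Col4a1* at 40.2, the multiplexin *Col18a1*, which carries endostatin, at 27.9, *Col4a2* at 25.5, *Col2a1*, the collagen of cartilage and notochord, at 21.9, *Col5a2* at 18.8 and *Col9a1* at 17.4. The ranges of *Col3a1*, *Col4a1* and *Col18a1* over the libraries did not overlap each other, whereas each gene from *Col18a1* down to *Col9a1* overlapped its neighbour in this order. With the length of the longest coding transcript *Col3a1* and *Col4a1* were again the highest, at 113 and 45.4 CPM per kilobase, and *Col26a1* came next at 42.7. By class, fibrillar chains held 45.3% of the summed level per kilobase, basement membrane chains 23.6%, FACIT chains 9.81% and multiplexins 9.1%.

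**Figure D1:**
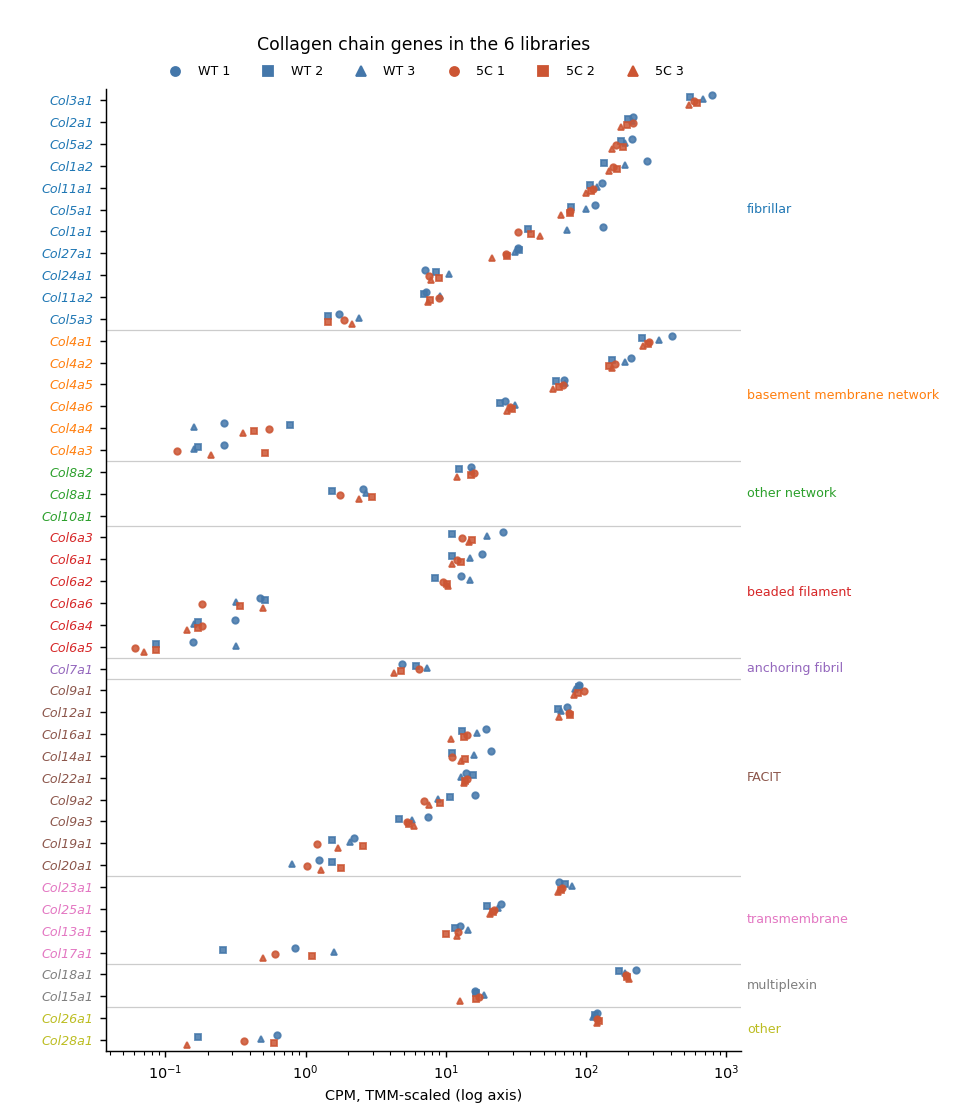
Level of each collagen chain gene in CPM (TMM-scaled, log axis) in the 3 WT (blue) and 3 5C (red) libraries, with genes grouped by class. *Col10a1*, with 0 counts, has no point. *Col3a1* lies between 540.3 and 788 CPM, and points of 1 gene mostly lie close together beside the spread between genes.

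At the other end, 7 genes were too low to test. *Col10a1*, the chain of hypertrophic cartilage, had 0 counts in all 6 libraries. *Col4a3* and *Col4a4*, which replace the ubiquitous type IV chains in the mature glomerulus, had 1 to 6 and 1 to 9 counts per library. *Col6a4*, *Col6a5* and *Col6a6*, a tandem group on chromosome 9 whose products can replace *Col6a3* in type VI collagen, had 1 to 9 counts per library, and *Col28a1* had 2 to 12. All other 37 genes passed the count filter, among them *Col17a1*, the hemidesmosome collagen of skin, with only 3 to 16 counts per library.

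To ask whether the extra *Mir483* copies went with a change in collagen RNA, 5C was compared with WT in the 37 collagen genes that could be tested, within a fit of all 16784 genes that passed the filter. 0 collagen genes met an adjusted p under 0.05 with a fold change over 1.5 (edgeR's quasi-likelihood test, Benjamini-Hochberg adjustment), as did 0% of all genes tested. *Mir483* itself, at a log2 fold change of 3.05, had an adjusted p of 0.169 in this test, so even the edited gene was not called. At an unadjusted p under 0.05, 6 of the 37 collagen genes passed, all of them lower in 5C, whereas 6.02% of all genes passed, 3.47% lower and 2.55% higher. They were *Col27a1*, *Col5a1*, *Col1a1*, *Col9a2*, *Col4a2* and *Col5a2*, and the adjusted p of each was 0.781. The log2 fold change was below 0 in 27 of 37 collagen genes, against 50.7% of all genes, and its median was -0.15 against -0.00. The WT and 5C libraries did not overlap in 2 collagen genes, *Col5a1* and *Col27a1*, both with 5C below WT, where 11.4% of all genes did not overlap, 5.1% with 5C lower and 6.26% with 5C higher.

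**Figure D2:**
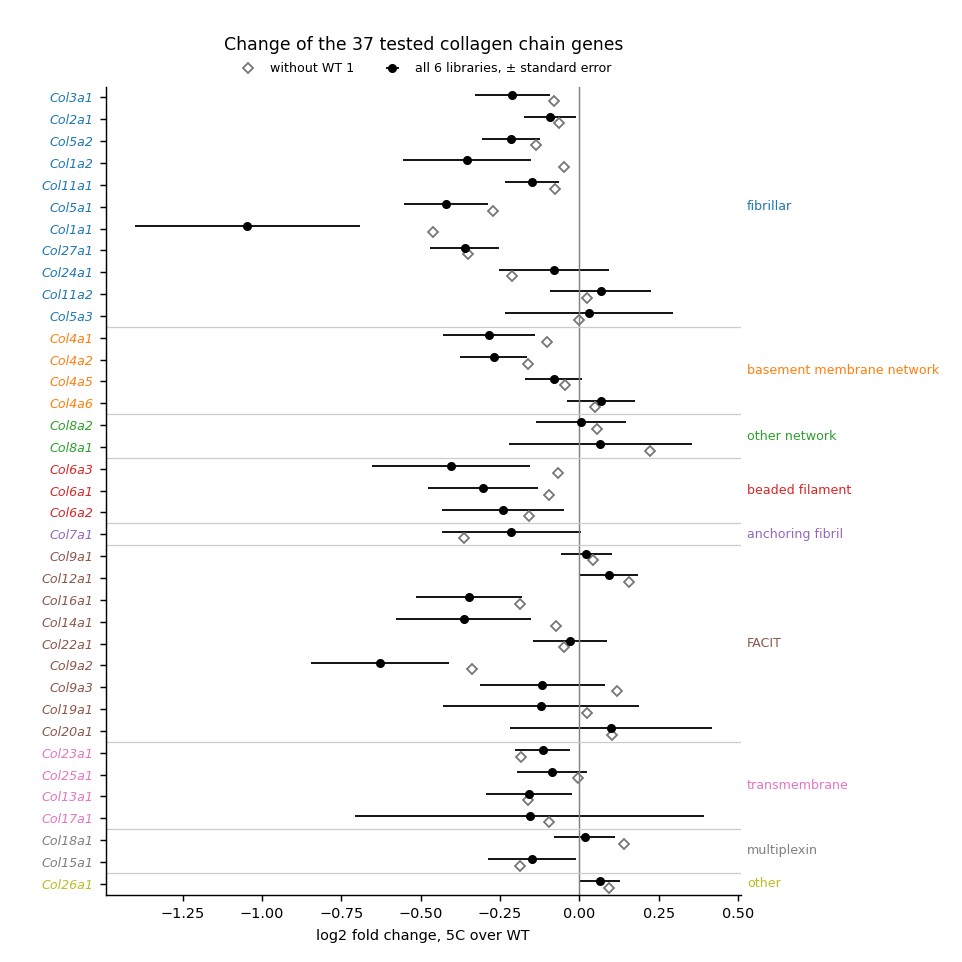
Log2 fold change of 5C over WT for the 37 tested collagen genes, with all 6 libraries (filled points, bars are standard errors) and without WT 1 (open diamonds). Most points lie left of 0, 27 of 37 with all libraries and 26 of 37 without WT 1, and the *Col1a1* point is the furthest from 0.

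The size of these differences varied with the library left out. Among single libraries, the median came nearest to 0 without WT 1, the library richest in yolk sac markers. WT 1 held the highest level of 17 of 37 collagen genes, against 18.1% of all genes tested. Without WT 1 the median log2 fold change of the collagen genes was -0.07, 26 of 37 genes were below 0 (48.9% of all genes), and 2 genes, *Col5a1* and *Col27a1*, had an unadjusted p under 0.05 by edgeR's quasi-likelihood test (4.63% of all genes). Leaving out WT 2, often the lowest WT library, gave 15 collagen genes lower and 0 higher at that threshold (10.4% of all genes). The median was then -0.22. Leaving out 5C 1 gave 3 lower and 0 higher (8.66% of all genes). With all 6 libraries 1011 genes passed that threshold in all. Without WT 3 there were 4 of 37 collagen genes lower and 0 higher (886 genes in all), with a median of -0.09. Without 5C 3 there were 4 lower and 0 higher (756 genes in all), with a median of -0.09. Without 5C 2 there were 5 lower and 0 higher (456 genes in all), with a median of -0.17. Without WT 1 and 5C 3, the libraries highest in yolk sac markers in each genotype, the median was -0.03, 22 genes were below 0 (50.4% of all genes) and 2 had an unadjusted p under 0.05, 1 lower and 1 higher (4.77% of all genes). Without WT 2 and 5C 2, the libraries low in Y-linked counts, the median was -0.24, 30 genes were below 0 (49.6% of all genes) and 14 had an unadjusted p under 0.05, all lower (5.11% of all genes). The part of yolk sac tissue in the collagen levels of WT 1 was not tested. Across the 16770 genes with a known GC content, GC-rich transcripts had the lower log2 fold changes, with a Spearman rho of -0.312, a description of genes measured in the same 6 libraries. The median GC content was 56.4% in the tested collagen transcripts and 49.4% in all tested genes, and with GC-content offsets the median log2 fold change of the collagen genes was -0.11.

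**Figure D3:**
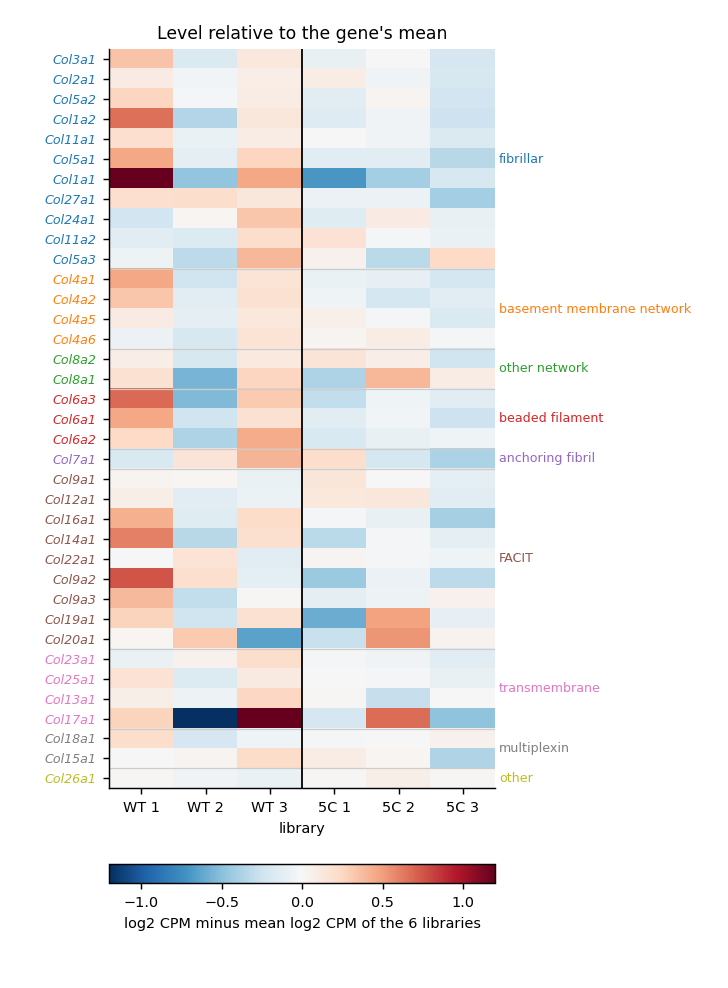
Log2 CPM of each tested collagen gene minus its mean over the 6 libraries, in colour from blue (below the mean) to red (above), with the WT libraries left of the line and the 5C libraries right of it. The WT 1 column is red for most fibrillar, beaded filament and basement membrane chains and is deepest for *Col1a1*, and the WT 2 column is blue for many of the same genes.

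Among the fibrillar chains, 9 of 11 had a log2 fold change below 0, against 50.7% of all genes, with a median of -0.21. At an unadjusted p under 0.05 by edgeR's quasi-likelihood test, 4 of them were lower, against 3.47% of all genes. Without WT 1, 10 of 11 were below 0 (48.9% of all genes), with a median of -0.08. Of the 11, 2 then had an unadjusted p under 0.05 by the same test (4.63% of all genes). *Col1a1* (ENSMUSG00000001506, chromosome 11, 94936224 to 94953042, plus strand) and *Col1a2* (ENSMUSG00000029661, chromosome 6, 4504814 to 4541544, plus strand) code the chains of type I collagen, the main collagen of bone, skin and tendon. *Col1a1* measured 133, 38.4 and 73.4 CPM in WT 1 to WT 3 and 32.8, 40.2 and 46.7 CPM in 5C 1 to 5C 3. WT 1 and WT 3 were above all 5C libraries, and WT 2 lay within the 5C range. The log2 fold change of -1.05 (SE 0.36), a fold of 0.484, had an adjusted p of 0.781 by edgeR's quasi-likelihood test and was -0.46 without WT 1. *Col1a2* measured 272, 134 and 188 CPM in WT 1 to WT 3 and 155, 167 and 145 CPM in 5C 1 to 5C 3. Its order over the WT libraries was that of *Col1a1*, WT 2 was below all 5C libraries, and the log2 fold change of -0.35 (SE 0.20) had an interval of -0.81 to 0.10 (95%) and was -0.05 without WT 1. *Col3a1* measured 788, 552 and 682 CPM in WT 1 to WT 3 and 587, 619.8 and 540.3 CPM in 5C 1 to 5C 3. WT 1 and WT 3 were again the highest, WT 2 lay within the 5C range, and the log2 fold change was -0.21 (SE 0.12) and was -0.08 without WT 1.

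Type V collagen, the minor fibrillar collagen that sets where and how thick type I fibrils form, had both of its main chains at an unadjusted p under 0.05. *Col5a1* (ENSMUSG00000026837, chromosome 2, 27886425 to 28039514, plus strand), which has a miR-483-3p match, measured 116, 77.8 and 101 CPM in WT 1 to WT 3 and 76.7, 76.7 and 66.6 CPM in 5C 1 to 5C 3. Every 5C library lay below every WT library, although WT 2 and 5C 1 were about 1 CPM apart. The log2 fold change of -0.42 (SE 0.13) had an adjusted p of 0.781 by edgeR's quasi-likelihood test and was -0.27 without WT 1. *Col5a2* measured 214, 177 and 191 CPM in WT 1 to WT 3 and 164, 183 and 153 CPM in 5C 1 to 5C 3. Its highest 5C library, 5C 2, was above WT 2, so the groups overlapped, and the log2 fold change of -0.22 (SE 0.09) had an adjusted p of 0.781 by edgeR's quasi-likelihood test. *Col5a3*, the remaining chain, was low, with a mean of 1.84 CPM and a log2 fold change of 0.03, which was -0.00 without WT 1. *Col27a1* (ENSMUSG00000045672, chromosome 4, 63214004 to 63334991, plus strand), a fibrillar collagen of developing cartilage, measured 32.8, 33 and 31.2 CPM in WT 1 to WT 3 and 27, 27.2 and 21.4 CPM in 5C 1 to 5C 3. The WT libraries lay within 2 CPM of each other and above every 5C library. Its log2 fold change of -0.36 (SE 0.11) had the smallest unadjusted p of all collagen genes, with an adjusted p of 0.781 by edgeR's quasi-likelihood test, and was -0.35 without WT 1.

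Most of the other fibrillar chains belong to cartilage. *Col2a1* measured 216, 197 and 213 CPM in WT 1 to WT 3 and 214, 196 and 176 CPM in 5C 1 to 5C 3. The groups overlapped, with 5C 3 the lowest library, and the log2 fold change was -0.09 with an interval of -0.27 to 0.09 (95%). *Col11a1* measured 129, 106 and 119.8 CPM in WT 1 to WT 3 and 112, 109 and 99.5 CPM in 5C 1 to 5C 3. *Col11a1*, which joins type II collagen in cartilage fibrils, was also lowest in 5C 3, and its log2 fold change was -0.15 (SE 0.09). *Col11a2* had values of 7.22, 7.02 and 9.07 CPM in WT 1 to WT 3 and 8.89, 7.75 and 7.46 CPM in 5C 1 to 5C 3, with no order between the genotypes. *Col24a1*, a fibrillar collagen of developing bone and cornea, had a mean of 8.4 CPM and a log2 fold change of -0.08. The summed level of 10 sclerotome and cartilage markers, none of them a collagen gene, was 217, 217 and 251 CPM in WT 1 to WT 3 and 200.3, 215 and 233 CPM in 5C 1 to 5C 3, with overlapping groups.

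Type IV collagen is the network collagen of basement membranes, and its genes lie in head-to-head pairs. *Col4a1* (ENSMUSG00000031502, chromosome 8, 11198423 to 11312826, minus strand) and *Col4a2* (ENSMUSG00000031503, chromosome 8, 11312805 to 11449287, plus strand) are read in opposite directions from annotated start sites 21 bases apart. *Col4a1* measured 407, 251 and 332 CPM in WT 1 to WT 3 and 280.3, 276 and 256 CPM in 5C 1 to 5C 3. WT 1 and WT 3 were above all 5C libraries, WT 2 was below them, and the log2 fold change of -0.29 (SE 0.14) was -0.10 without WT 1. *Col4a2* measured 210.4, 154 and 190.3 CPM in WT 1 to WT 3 and 162, 145 and 153 CPM in 5C 1 to 5C 3. WT 1, WT 3 and 5C 1 were the 3 highest libraries for both genes, WT 2 lay within the 5C range of *Col4a2*, and its log2 fold change of -0.27 (SE 0.11) had an adjusted p of 0.781 by edgeR's quasi-likelihood test. The X-linked pair *Col4a5* and *Col4a6*, whose start sites are 1309 bases apart, forms basement membranes of smooth muscle and epithelia. *Col4a5* measured 69.8, 60.6 and 71.1 CPM in WT 1 to WT 3 and 67.9, 64.5 and 57.9 CPM in 5C 1 to 5C 3. *Col4a6* measured 26.5, 24.5 and 31.4 CPM in WT 1 to WT 3 and 28.7, 29.6 and 27.5 CPM in 5C 1 to 5C 3. The genotypes overlapped for both genes, WT 2 was the lowest library for *Col4a6*, and the log2 fold changes were -0.08 (SE 0.09) and 0.07 (SE 0.11).

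Type VI collagen forms beaded filaments around cells from the chains *Col6a1*, *Col6a2* and *Col6a3*. *Col6a1* measured 18, 11 and 14.8 CPM in WT 1 to WT 3 and 12, 12.8 and 11 CPM in 5C 1 to 5C 3. *Col6a2* measured 12.8, 8.39 and 14.8 CPM in WT 1 to WT 3 and 9.55, 10.2 and 10.4 CPM in 5C 1 to 5C 3. *Col6a3* measured 25.5, 11 and 19.7 CPM in WT 1 to WT 3 and 13, 15.3 and 14.6 CPM in 5C 1 to 5C 3. For *Col6a1* and *Col6a3* WT 1 was the highest library, for *Col6a2* it was WT 3, and WT 2 was the lowest WT library for all 3. Their log2 fold changes were -0.30, -0.24 and -0.40, and -0.10, -0.16 and -0.07 without WT 1.

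FACIT collagens bind to the surface of fibrils. *Col9a1* measured 89.7, 89.1 and 83.2 CPM in WT 1 to WT 3 and 97, 87.6 and 81.6 CPM in 5C 1 to 5C 3. *Col9a1*, a chain of the type IX collagen of cartilage, did not differ beyond its spread, with a log2 fold change of 0.02 and an interval of -0.16 to 0.20 (95%). *Col9a2* measured 16, 10.8 and 8.75 CPM in WT 1 to WT 3 and 6.95, 9.03 and 7.6 CPM in 5C 1 to 5C 3. For *Col9a2*, another type IX chain, WT 1 and WT 2 were the highest libraries and WT 3 lay below 5C 2. Its log2 fold change of -0.63 (SE 0.22) had an adjusted p of 0.781 by edgeR's quasi-likelihood test and was -0.34 without WT 1. *Col9a3*, the remaining type IX chain, measured 7.43, 4.63 and 5.73 CPM in WT 1 to WT 3 and 5.26, 5.45 and 5.89 CPM in 5C 1 to 5C 3, a log2 fold change of -0.12, which was 0.12 without WT 1. *Col12a1* measured 72.8, 63.5 and 66.2 CPM in WT 1 to WT 3 and 75.9, 76.4 and 63.9 CPM in 5C 1 to 5C 3. *Col12a1*, the FACIT of tendon and fascia, had its highest values in 5C 1 and 5C 2 and a log2 fold change of 0.09 (SE 0.09). The other FACIT genes had means from 1.28 CPM (*Col20a1*) to 14.6 CPM (*Col16a1*) and log2 fold changes from -0.36 (*Col14a1*) to 0.10 (*Col20a1*).

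Of the remaining classes, 4 of 4 transmembrane chains had a log2 fold change below 0, against 50.7% of all genes. Their log2 fold changes went from -0.16 (*Col13a1*) to -0.09 (*Col25a1*). The most abundant of them, *Col23a1*, measured 64.5, 70.5 and 78.8 CPM in WT 1 to WT 3 and 67.5, 66.3 and 62.6 CPM in 5C 1 to 5C 3, with 5C 3 the lowest library and overlapping groups. *Col18a1* measured 226, 170.3 and 188 CPM in WT 1 to WT 3 and 194, 196 and 202 CPM in 5C 1 to 5C 3. The 5C libraries of *Col18a1*, a basement membrane proteoglycan, sat inside the WT range, and the log2 fold change was 0.02 with an interval of -0.20 to 0.23 (95%). *Col26a1* measured 119.9, 115 and 113 CPM in WT 1 to WT 3 and 119.8, 125 and 119.7 CPM in 5C 1 to 5C 3. *Col26a1* varied little, with overlapping groups and a log2 fold change of 0.06 (SE 0.06). *Col8a2* measured 15, 12.5 and 15.4 CPM in WT 1 to WT 3 and 15.8, 15.1 and 12.1 CPM in 5C 1 to 5C 3. *Col8a1* measured 2.56, 1.54 and 2.71 CPM in WT 1 to WT 3 and 1.75, 2.98 and 2.41 CPM in 5C 1 to 5C 3. The chains of type VIII collagen, a short-chain collagen of the eye and vessel wall, showed no order between genotypes, with log2 fold changes of 0.00 and 0.07. *Col7a1*, which anchors the epidermis, had a mean of 5.63 CPM and a log2 fold change of -0.21 (SE 0.22).

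The summed level of each class was compared next, by exact two-sided permutation tests over the 6 libraries on the log2 scale, where 3 libraries against 3 cannot give a p below 0.1. Fibrillar chains summed to 1916, 1333 and 1621 CPM in WT 1 to WT 3 and 1388, 1437 and 1267 CPM in 5C 1 to 5C 3, with a log2 difference of -0.24 and p = 0.300 (exact permutation test). Basement membrane network chains summed to 714, 490.4 and 625 CPM in WT 1 to WT 3 and 539, 516 and 495 CPM in 5C 1 to 5C 3, with a log2 difference of -0.22 and p = 0.400 (exact permutation test). In both classes WT 1 was the highest library, WT 3 came next and the other 4 lay closer together. Beaded filament chains had a log2 difference of -0.28 and p = 0.400, and FACIT chains a log2 difference of -0.04 and p = 0.700 (exact permutation tests). Without WT 1 the log2 difference was -0.11 for fibrillar, -0.10 for basement membrane network, -0.10 for beaded filament and 0.03 for FACIT chains. All 9 classes overlapped between genotypes and the adjusted p over the classes was 0.600 or 0.900. All 44 genes summed to 3419.6, 2489.8 and 2973 CPM in WT 1 to WT 3 and 2646, 2675 and 2447 CPM in 5C 1 to 5C 3. This sum had an SD of 465 CPM over the WT libraries and 124 CPM over the 5C libraries. Its log2 difference was -0.18, and -0.07 without WT 1.

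**Figure D4:**
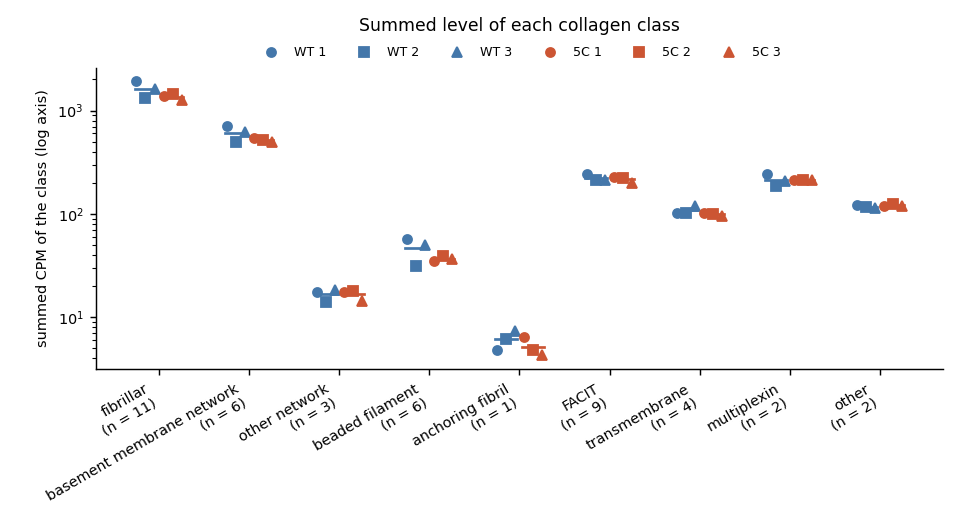
Summed CPM of each collagen class (log axis) in the 6 libraries, with horizontal lines at the mean of each genotype. The fibrillar class lies between 1267 and 1916 CPM, and in every class the WT and 5C points overlap.

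Whether chains that share a molecule, or a fibril in the case of *Col2a1* to *Col11a1* and *Col3a1* to *Col1a1*, kept a fixed proportion was examined with ratios of counts per exon base, a level ratio within a library that does not depend on its depth. Of 13 pairs listed, 12 had at least 10 counts of both chains in every library, and *Col4a3* to *Col4a4* did not. The ratio of *Col4a1* to *Col4a2* was nearly constant, at 1.72, 1.45 and 1.55 in WT 1 to WT 3 and 1.54, 1.69 and 1.48 in 5C 1 to 5C 3. So was that of *Col2a1* to *Col11a1*, at 2.3, 2.56 and 2.45 in WT 1 to WT 3 and 2.63, 2.49 and 2.44 in 5C 1 to 5C 3. Their highest value was 1.19 and 1.14 times the lowest, the smallest spread of the 12 ratios. *Col1a1* to *Col1a2* varied more, at 0.926, 0.541 and 0.737 in WT 1 to WT 3 and 0.402, 0.457 and 0.609 in 5C 1 to 5C 3. The ratio was below 1 in each library, highest in WT 1, and its highest value was 2.3 times the lowest. *Col3a1* to *Col1a1* was the most variable, at 3.97, 9.62 and 6.22 in WT 1 to WT 3 and 12, 10.3 and 7.74 in 5C 1 to 5C 3, and was lowest in WT 1.

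The ratio differed between genotypes by a log2 difference of -0.57 for *Col1a1* to *Col1a2*, 0.67 for *Col3a1* to *Col1a1* and -0.48 for *Col9a2* to *Col9a3*. Each had p = 0.200 in an exact permutation test and 0.480 after adjustment over the 12 ratios. *Col9a2* to *Col9a3* was 2.68, 2.9 and 1.9 in WT 1 to WT 3 and 1.65, 2.06 and 1.6 in 5C 1 to 5C 3, with WT 3 inside the 5C range. *Col5a1* to *Col5a2* was 0.611, 0.497 and 0.596 in WT 1 to WT 3 and 0.528, 0.473 and 0.491 in 5C 1 to 5C 3, a log2 difference of -0.19, and WT 2 lay inside the 5C range. *Col4a5* was above *Col4a6*, at 2.5 to 3.12 times its level, *Col11a1* was above *Col11a2*, at 6.82 to 9.67 times its level, *Col9a1* was above *Col9a3*, at 9.18 to 14.6 times its level and *Col6a1* was above *Col6a2*, at 1.9 to 2.67 times its level. *Col6a3* was below *Col6a1*, at 0.366 to 0.519 times its level, and *Col8a1* was below *Col8a2*, at 0.0634 to 0.115 times. The absolute ratio depends on the exon length used, and *Col1a1* to *Col1a2* averaged 0.612 with the union of annotated exons and 0.291 with the longest coding transcript.

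**Figure D5:**
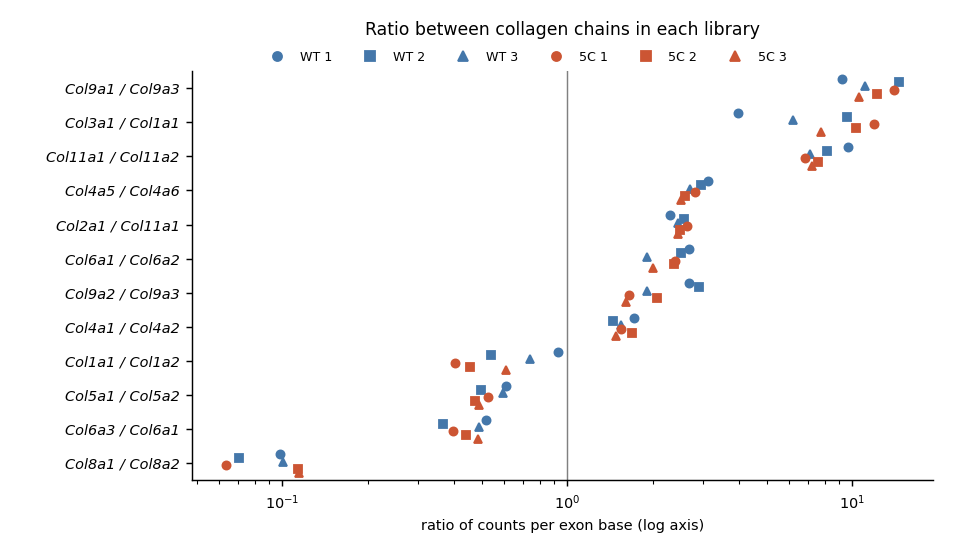
Ratio of counts per exon base between the first and the second chain of 12 pairs (log axis) in each library, with a line at 1. The *Col4a1* to *Col4a2* points lie between 1.45 and 1.72, whereas *Col3a1* to *Col1a1* ranges from 3.97 to 12.

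The log2 fold changes were then set beside the seed matches shown above. The 5 tested collagen genes with a miR-483-3p match had log2 fold changes of -0.42 (*Col5a1*), -0.36 (*Col14a1*, -0.07 without WT 1), -0.22 (*Col5a2*), -0.03 (*Col22a1*) and 0.06 (*Col26a1*), with a median of -0.22. The 32 without a match include *Col6a3* and *Col18a1*, whose longest coding transcript has no annotated 3′ UTR. They had a median of -0.14, and 23 of them were below 0, against 50.7% of all genes tested. Over all tested coding genes with a 3′ UTR the medians were -0.02 for 1729 genes with a match and -0.00 for 12157 without. *Col1a1*, the only collagen gene with a miR-483-5p match, had the largest log2 fold change in size of all tested collagen genes. That log2 fold change was -1.05, and -0.46 without WT 1. Over all tested coding genes with a 3′ UTR the medians for miR-483-5p were -0.04 for 478 genes with a match and -0.00 for 13408 without. The 22 collagen genes with a miR-29a-3p match had a median of -0.15, and the 15 without, again with *Col6a3* and *Col18a1* among them, had -0.12. *Col27a1*, which has the smallest p, has no match to either miR-483 seed.

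Promoters were compared as a feature that the choice of genes did not use. RefSeq promoter windows from 250 bases before to 50 bases after the start were matched for 35 of the 44 genes, in 38 windows. The GC box GGGCGG, read on both strands, was in 60.5% of them, against 35.7% of all 32851 windows. CCAAT was in 34.2% against 37.4%, and TATAAA in 13.2% against 13.6%.

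Collagen chains need dedicated enzymes and chaperones before they leave the cell, and other proteins process, crosslink, bind and degrade them. Of the 15 tested genes for hydroxylation and glycosylation, 1 was lower and 1 higher in 5C at an unadjusted p under 0.05 by edgeR's quasi-likelihood test, where 3.47% of all genes tested were lower and 2.55% higher. The higher one was *P4ha1*, a prolyl hydroxylase subunit, and the lower one *Plod3*, a lysyl hydroxylase, with log2 fold changes of 0.22 and -0.23. Of 7 folding and export genes 2 were lower, the collagen chaperone *Serpinh1* (-0.15) and the coat protein gene *Sec24d* (-0.26), and the median of this list was -0.15, and 0.06 without WT 1. For propeptide removal and crosslinking 0 of 7 and 0 of 5 passed, with medians of -0.13 and -0.10. In these lists 7 of 7 and 4 of 5 had a log2 fold change below 0, against 50.7% of all genes. Of 8 receptors 6 had a log2 fold change above 0, with a median of 0.03, and the endocytic collagen receptor *Mrc2* (-0.21) was the 1 gene that passed. Of 6 turnover genes 4 were below 0, with a median of -0.04, and the membrane collagenase *Mmp14* (-0.20) was the 1 that passed. The adjusted p of each of these genes was at or above 0.781 by edgeR's quasi-likelihood test.

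The genes that share the basement membrane with type IV collagen were examined next. All 16 had a log2 fold change below 0, against 50.7% of all genes, with a median of -0.20, and 15 did without WT 1, against 48.9% of all genes, with a median of -0.14. Of them 5 had an unadjusted p under 0.05 by edgeR's quasi-likelihood test and were lower (3.47% of all genes), against 1 without WT 1, where 4.63% of all genes passed in either direction. The proteoglycan *Hspg2* (perlecan) was 92 ± 16.5 CPM over WT libraries and 72.1 ± 3.34 CPM over 5C libraries (SD, n = 3), a log2 fold change of -0.35. The laminin chains *Lamc1* and *Lama1* had log2 fold changes of -0.27 and -0.20. The summed level of 6 parietal endoderm markers, of which *Lama1*, *Lamb1*, *Lamc1* and *Sparc* are also counted among these partners, was 725, 607 and 679.9 CPM in WT 1 to WT 3 and 597, 577 and 590.4 CPM in 5C 1 to 5C 3, with every 5C library below every WT library. The summed endothelial markers were 356, 336 and 349 CPM in WT 1 to WT 3 and 325, 335 and 351 CPM in 5C 1 to 5C 3, and the mesenchymal markers 697, 695 and 753 CPM in WT 1 to WT 3 and 677, 709 and 718 CPM in 5C 1 to 5C 3, both with overlapping groups. The part of these cell types in the collagen levels was not tested. With all libraries, 3.47% of all genes tested were lower and 2.55% higher at an unadjusted p under 0.05. The basement membrane partners (16 tested) were then counted with the hydroxylation (15), folding (7), propeptide removal (7), crosslinking (5), receptor (8) and turnover (6) genes. Of all these genes, 10 were lower and 1 higher at that threshold. Without WT 1 this became 1 lower (*Lamc1*) and 3 higher, namely *P4ha1* (0.24), the prolyl 3-hydroxylation partner *Crtap* (0.38) and the lysyl oxidase *Lox* (0.42), of which *Crtap* and *Lox* were named after their values were seen. 20 were lower and 0 higher without WT 2, where 10.4% of all genes passed in either direction. 9 were lower and 4 higher without 5C 1, where 8.66% passed. 2 were lower and 1 higher without WT 3, where 886 genes passed in all, against 1011 with all libraries. 0 were lower and 1 higher without 5C 2 (456 genes in all), and 5 were lower and 0 higher without 5C 3 (756 genes in all).

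The genes outside the collagen family whose level over the 6 libraries was most like that of *Col1a1*, *Col1a2* and *Col3a1* were *Ttll12*, *Cltc*, *Dapk1*, *Cldn4* and *Kit*, with Pearson's r from 0.988 to 0.995 on log2 CPM. This is a description of 6 points searched over all tested genes, and the points share the high value of WT 1. *Cltc*, the clathrin heavy chain, for example, measured 861, 689 and 781 CPM in WT 1 to WT 3 and 704, 705 and 709 CPM in 5C 1 to 5C 3, with WT 1 and WT 3 the highest libraries as for type I and III collagen.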

How the data were processed

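RNA-seq was performed by the authors on poly(A)-selected, strand-specific libraries, read as short single ends and aligned with STAR to GRCm38, and raw counts per Ensembl gene were deposited without normalization. Which strand column was counted is not given in the sources used here. Gene symbols, positions, exon lengths and 3′ UTRs were taken from GENCODE M21 (GRCm38), in which 55141 of 55401 identifiers were found. The longest coding transcript of *Col6a3* and of *Col18a1* has no annotated 3′ UTR. Exons shared with another gene on the same strand made up at most 1.54% of any collagen gene, and with a gene on the opposite strand at most 6.07% (*Col9a3*), which cannot be told apart without the strand setting.

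Differential expression was computed in edgeR 4.0.16 (R 4.3.3) with filterByExpr on genotype, TMM scaling and the legacy quasi-likelihood F-test over all genes. P-values are two-sided with Benjamini-Hochberg adjustment, and SE is the log2 fold change divided by the square root of F. The biological coefficient of variation was 13.6%. All pairs of libraries differed by more than sampling noise (chi-square per gene at least 5.26). Libraries are separate embryo pools, and p-values measure the spread between these pools. Class sums and chain ratios were compared by exact permutation (scipy 1.17.1).

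The collagen genes, the other lists and the naming rule were chosen with earlier results of these data known. Named in full were the 15 genes with the highest mean CPM, those with an unadjusted p under 0.05 and the chains in a ratio; of other lists, at most 3 genes with the smallest p. Alternatives were relative log expression, library size alone, no filter, at least 10 counts in every library, DESeq2 1.42.0, limma-voom (limma 3.58.1), edgeR's newer form, the replicate block, GC-content offsets, other exon lengths and each library left out.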

Additional observations from a re-analysis of the deposited data

How the results depend on the processing

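With the call rule of the report, 0 collagen genes were called in the edgeR fit and in every alternative but 1. Without a count filter 2 passed, *Col1a1* and *Col9a2*, among 319 genes in all. Of the 43 collagen genes then tested, 12 had an unadjusted p under 0.05 and were lower. Over all genes 1011 passed that threshold with the filter and 2170 without it. In that fit the prior degrees of freedom were estimated as infinite, against 5.52 with the filter. DESeq2 called 11 genes, none a collagen gene. The count of 6 collagen genes lower at an unadjusted p under 0.05 went from 2 (without WT 1) to 15 (without WT 2) when 1 library was left out, with 3 without 5C 1. It was 14 without WT 2 and 5C 2, and 1 without WT 1 and 5C 3, where 1 collagen gene was higher. Both of these alternatives were chosen after seeing the data. In the other alternatives the count was 5 to 7, where 584 to 1053 genes passed in all. The median log2 fold change of the collagen genes ranged from -0.22 to -0.074 when 1 library was left out.

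At an unadjusted p under 0.05, 3.47% of all genes tested were lower and 2.55% higher. Of the tested genes of the assembly, crosslinking, receptor, turnover and basement membrane lists, whose numbers are given above, 10 were lower and 1 higher. The number lower was 3 with library size alone, 5 with GC-content offsets, 3 with a replicate block and these offsets, 0 without WT 1 and 5C 3, and 0 (without 5C 2) to 20 (without WT 2) when 1 library was left out, and the number higher then went from 0 to 4. Over all genes, 1011 passed that threshold in the edgeR fit. This number was 1053 with library size alone, 867 with GC-content offsets and 584 with the block and these offsets. The cause of these shifts was not tested.

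Small differences changed sign when 1 library was left out. Log2 fold changes went from -0.073 to 0.14 for *Col18a1*, -0.15 to 0.26 for *Col8a1*, -0.084 to 0.11 for *Col8a2*, -0.0037 to 0.15 for *Col4a6*, -0.28 to 0.12 for *Col9a3*, -0.048 to 0.079 for *Col9a1*, -0.10 to 0.18 for *Col5a3*, -0.12 to 0.29 for *Col20a1*, -0.092 to 0.047 for *Col22a1*, -0.21 to 0.052 for *Col24a1* and -0.017 to 0.17 for *Col11a2*. With relative log expression *Col8a2* was at -0.00017. *Col5a3* was at -0.0076 with the replicate block and *Col22a1* at 0.0035 with the block and GC-content offsets. Summed levels went from -0.10 to 0.11 for other network, -0.072 to 0.033 for FACIT and -0.075 to 0.11 for multiplexin chains, and log2 differences of ratios from -0.057 to 0.067 for *Col4a1* to *Col4a2*, -0.20 to 0.043 for *Col6a1* to *Col6a2*, -0.20 to 0.054 for *Col6a3* to *Col6a1*, -0.063 to 0.27 for *Col9a1* to *Col9a3* and -0.081 to 0.36 for *Col8a1* to *Col8a2*. All other collagen genes, classes and ratios named in the text with a difference kept their direction in the alternatives run on them. Among these, *Col1a1* went from -1.39 to -0.46 and *Col5a1* from -0.56 to -0.27 when 1 library was left out. The fits without WT 2 and 5C 2 and without WT 1 and 5C 3 were not run gene by gene in this check. In the fit without WT 1 and 5C 3, 22 collagen genes were below 0, against 27 with all libraries. Without a count filter *Col1a1*, *Col1a2*, *Col5a1* and *Col9a2* reached an adjusted p under 0.05. Over any coding transcript the miR-483 matches among collagen genes had the same counts, while those of all coding genes went from 10.54% to 11.33% for miR-483-3p and tested collagen genes with a miR-29a-3p match from 22 to 23.

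The labels do not say whether a replicate number pairs a WT with a 5C library. Libraries of 1 number had correlations of their deviations at -0.174, 0.202 and -0.166. Those of different numbers went from -0.199 to 0.307, and 1 pair per number cannot decide the question. With the replicate block 0 collagen genes were called, and 0 genes in all. At an unadjusted p under 0.05, 5 collagen genes were lower, where 782 of the 16784 genes tested passed. The median log2 fold change of the collagen genes was -0.15. For genes with few counts, such as *Col17a1* and the genes not tested, a difference was not detectable at this depth.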

Other observations

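Markers of other tissues were measured beside the collagen genes and belong to none of the comparisons above. Summed decidua markers (*Prl8a2*, *Prl3c1* and *Prl6a1*) were 9.42, 5.14 and 43.4 CPM in WT 1 to WT 3 and 32.1, 8.94 and 28.5 CPM in 5C 1 to 5C 3, and summed trophoblast markers (*Prl3d1*, *Prl3b1*, *Tpbpa* and *Prl2c2*) were 3.98, 5.82 and 2.39 CPM in WT 1 to WT 3 and 2.9, 1.28 and 7.74 CPM in 5C 1 to 5C 3. Notochord markers, among them *Shh* and *Foxa2*, summed to 29.4, 26 and 25.5 CPM in WT 1 to WT 3 and 24.7, 25.3 and 31.2 CPM in 5C 1 to 5C 3, and the skeletal precursor markers *Runx2*, *Sp7* and *Bglap* to 2.83, 1.8 and 2.86 CPM in WT 1 to WT 3 and 2.42, 1.79 and 2.13 CPM in 5C 1 to 5C 3. WT and 5C overlapped in all of these sums.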
